A study of Mus musculus with 15 samples.

Results

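The clustered histone genes of the mouse hippocampus were described across contextual fear conditioning and memory retrieval. Members were all genes in the count table whose symbol begins with Hist1, Hist2, Hist3 or Hist4 in the Ensembl annotation of mm9, the mouse genome build used throughout. The rule used no measured value, and it found 70 of the 37310 genes. Wild-type male C57BL/6J mice of 2 months were used in every group, and all were handled for 3 days beforehand. CC mice were only handled, never trained, and their tissue was taken at a matching hour. FC mice were placed in a chamber, received 1 foot shock of 1.5 mA for 2 s that ended at 2.5 min, and their tissue was taken 30 min later. In the RT group the same training was followed after 24 h by a 5 min test in the context, and tissue was taken 30 min after that test. Each library was made from the hippocampi of 1 mouse according to the article (the series description gives other animal numbers), with n = 5 libraries per group, numbered 3, 5, 6, 7 and 8. RNA was selected by its polyA tail before sequencing in pairs of 100 base reads, and 1 library of each group shared a lane. Whole hippocampus was measured, so fewer cells of a type and less RNA per cell cannot be told apart.

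Histones are the proteins around which DNA is wound. H2A, H2B, H3 and H4 form the core of the nucleosome, and H1 binds the DNA between cores. Most of them are encoded by many near-identical genes that lie side by side in a few clusters and are transcribed mainly while DNA is replicated. Their mRNAs are unusual among those of animals: they carry no polyA tail and end instead just after a short stem-loop, which is bound by the protein SLBP and cut by a complex that holds the U7 small nuclear RNA. Some of the same genes also give longer, polyadenylated mRNAs in cells that no longer divide, and replacement histones such as H3f3b are made from ordinary polyadenylated mRNAs at all times. Neurons do not divide, and the hippocampus keeps only a small pool of dividing progenitors.

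The stem-loop was looked for first, since it sets where the mRNA of a histone gene ends without a tail. The genome was searched on the strand of the gene, in the 300 bases after the stop codon, for GGNNNTNNTNANNNCC with the first 6 of the 16 bases able to pair with the last 6. It was found after the stop codon of 60 of the 67 protein-coding members (89.6%), against 9 of 22313 other protein-coding genes (0.0403%). Among those 9 was H2afx, a replacement H2A gene used in the DNA damage response, which was the only 1 of 14 unclustered histone genes. Of the 3 members annotated as pseudogenes, Hist2h3c2 and Hist3h2bb-ps held the loop in or just after the gene, which gave 62 members with a loop in all. The letters were nearly the same throughout. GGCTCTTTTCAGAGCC was found in 38 members, none of them an H4 gene, and the form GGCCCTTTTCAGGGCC in 8, all of them H4 genes. The loops of the members on which the results turn are given 5′ to 3′ with the 16 bases of the stem-loop in capitals and 5 genomic bases on each side in lower case.
Hist1h2bc (H2B, chr13:23776516-23776531, plus strand): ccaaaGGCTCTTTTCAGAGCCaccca
Hist1h1c (H1, chr13:23831381-23831396, plus strand): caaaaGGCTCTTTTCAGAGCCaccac
Hist3h2ba (H2B, chr11:58762851-58762866, plus strand): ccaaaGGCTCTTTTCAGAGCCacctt
Hist3h2a (H2A, chr11:58768674-58768689, plus strand): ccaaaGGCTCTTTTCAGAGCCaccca
Hist2h3c1 (H3, chr3:96051250-96051265, plus strand): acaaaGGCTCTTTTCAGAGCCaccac
Hist1h4i (H4, chr13:22132835-22132850, minus strand): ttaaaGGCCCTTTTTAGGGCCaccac
Hist1h4h (H4, chr13:23623327-23623342, plus strand): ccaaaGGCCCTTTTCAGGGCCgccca
Hist2h4 (H4, chr3:96066862-96066877, minus strand): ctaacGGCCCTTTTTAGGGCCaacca
Hist1h4j (H4, chr13:21827306-21827321, plus strand): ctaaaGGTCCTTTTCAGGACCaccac
Hist1h1e (H1, chr13:23713651-23713666, minus strand): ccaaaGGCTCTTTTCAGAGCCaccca
Genes whose values differed widely had the same loop: that of Hist1h2bc, the member with the most reads, is identical to that of Hist1h1e, and the 2 genes had 25212 and 486 reads in all libraries together. The gene without a loop that had the most reads was Hist2h2be, which encodes an H2B variant studied in olfactory neurons.

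What differed between members was where the annotated gene model ended. In 19 of the 62 members with a loop, the furthest annotated 3′ end lay more than 100 bases past it, and these 19 held 86.9% of all reads of clustered histone genes. The 43 others held 4.23% of the reads, and in 16 of the 62 the model ended before the end of the loop. The model of Hist1h1c ran 839 bases past the loop, that of Hist3h2a 1487, that of Hist2h3c1 1166 and that of Hist2h4 1235. Hist1h2bc has a second exon, and its model ended 7826 genomic bases past the loop. Longer models collect more reads, so levels were also set per length, as FPKM, the reads divided by exon length and library depth. The median FPKM, averaged over the 15 libraries, was 0.655 in the 19 members with the longer models and 0.0700 in the 43 others.

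A polyA signal, AATAAA or ATTAAA in the last 50 bases of the model, was found in 17 members, which is 25.4% of the 67 protein-coding ones against 66.7% of other protein-coding genes. Those 17 held 92.3% of the members' reads and the 53 without the signal held 7.75%. The signal was present in 8 of the 10 members with the most reads and was missing in Hist2h3c2 and Hist1h2ac. It did not by itself go with high counts, since Hist1h2bq, Hist1h2br and Hist1h1t had the signal and 6, 7 and 9 reads in all 15 libraries. The counts do not show where a transcript ended, so whether these reads came from tailed RNA was not tested.

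**Figure D1:**
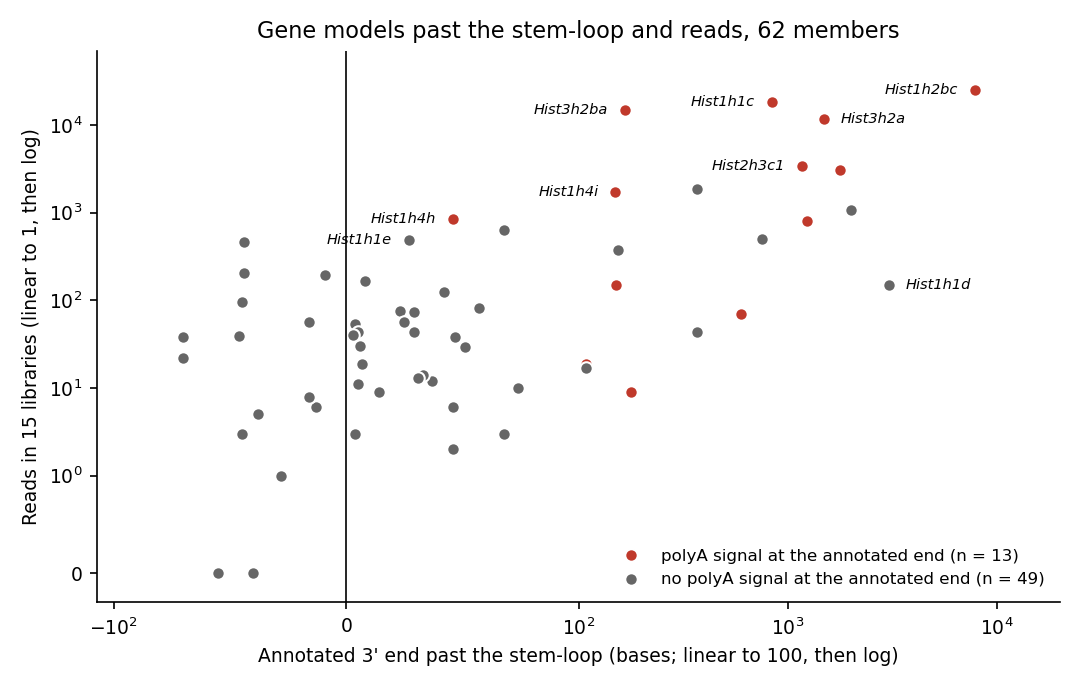
Each point is 1 of the 62 clustered histone genes with a stem-loop, with the distance in bases from the loop to the furthest annotated 3′ end on the x axis and its reads summed over 15 libraries on the y axis, both on axes that are linear near 0 and logarithmic beyond. The 13 genes with a polyA signal at the annotated end (red) include the highest, Hist1h2bc with 25212 reads, while most of the 49 without one (grey) lie near a distance of 0 and under 100 reads.

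Reads were concentrated in a few genes. Of 95848 reads in the 15 libraries, Hist1h2bc took 26.3%, and with Hist1h1c, Hist3h2ba and Hist3h2a 73.1%. The 10 highest members held 93.3%. By class, the 19 H2B genes held 54.8% of the reads, the 6 H1 genes 19.996%, the 20 H2A genes 14.4%, the 12 H3 genes 6.41% and the 13 H4 genes 4.45%. A single gene led most classes: Hist1h1c held 96.3% of the H1 reads, Hist3h2a 83.7% of the H2A reads and Hist2h3c1 55.6% of the H3 reads. The large Hist1 cluster on chromosome 13, with 56 members, held 56.2% of the reads. The Hist3 cluster on chromosome 11 has only 3 members and held 27.7%, the 10 members of Hist2 on chromosome 3 held 16.1%, and the lone Hist4h4 on chromosome 6 held 0.0396%. Per length the order changed slightly: mean FPKM was 44.4 for Hist1h2bc (35.1 to 85.2 over libraries), 31.0 for Hist3h2ba, 15.3 for Hist1h1c, 7.52 for Hist3h2a, 4.19 for Hist1h4i and 4.10 for Hist2h2be.

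Most members were too weak to be tested. A gene had to exceed 10 reads in over 5 libraries, which 23 members did: 3 of 6 H1 genes, 4 of 20 H2A genes, 7 of 19 H2B genes, 4 of 12 H3 genes and 5 of 13 H4 genes. Of the 47 that did not, 21 had 1 to 15 reads in all libraries together and 24 had more, up to 125 for the H2A gene Hist1h2ad. No single library had more than 15 reads of any of them. Hist1h2aa and Hist2h2ab were at 0 throughout, which at 766917181 reads allows up to 0.00391 RPM (reads per 1000000 reads of a library), counting error only.

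Sequence shared between members limits these counts, because only uniquely mapped pairs were counted. A median of 63.3% of the 100 base windows in the exons of a member occurred once in the genome. No window was unique in Hist2h2aa1, Hist2h2aa2, Hist1h2ao, Hist1h2ap, Hist1h2bq and Hist1h2br, and the reads of these 6 are uncertain. In Hist1h2bc 50.4% of windows were unique, in Hist2h3c1 47.0%, in Hist1h4k 35.7% and in Hist2h3b 22.9%, while in Hist2h2be, Hist3h2a and Hist2h4 all were. Exons of Hist3h2a overlap Trim17, those of Hist2h3c1 overlap Hist2h2aa1, and those of Hist1h2be and Hist1h2ac overlap Gm11398 and a 5S_rRNA gene, each on the same strand. How reads in an overlap were assigned, and whether counting used strand, was not given in the sources used here.

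The spread of the members was measured first among the 5 control mice. Counts below were scaled by the upper quartile of each library (UQ). Hist1h2bc had 1364, 1408, 1554, 1500 and 1629 counts in CC3, CC5, CC6, CC7 and CC8. Their coefficient of variation was 7.22%, where counting error alone would give 2.56%. Hist1h1c, which encodes a linker histone of non-dividing and dividing cells alike, had 1128, 1216, 1262, 1029 and 972. Over the 10 most-read members this ratio of spread to counting error ran from 0.768 to 3.71, and over the 13 other tested members from 0.607 to 1.69. Among the weaker genes Hist1h4k had 11.8% against 16.8%, while Hist1h4h had 23.9% against 14.2%.

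Libraries FC3 and RT3 stood apart from the rest of their groups in many members. Hist1h2bc had 3350 counts in FC3 against 1463, 1607, 1399 and 1303 in FC5, FC6, FC7 and FC8, and 2537 in RT3 against 1485, 1576, 1600 and 1370 in RT5, RT6, RT7 and RT8. Both libraries lay above all 13 others. The H2B gene Hist3h2ba had 2256 in FC3 and 706, 765, 887 and 754 in the other FC libraries. In RT it had 1641 in RT3 and 963, 680, 938 and 862 in the rest. The same direction held for Hist1h1c, with 1977 in FC3 and 1885 in RT3 against 972 to 1264 in the 13 other libraries, and for Hist3h2a, with 1384 and 1030 against 644 to 799. Among H4 genes, Hist1h4h had 140 counts in FC3 and 97.2 in RT3 against 31.6 to 65.4 in the others, and Hist1h4i had 253 and 179 against 70.9 to 134.

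Other members went the opposite way in the same libraries. The H4 gene Hist2h4 had 9.12 counts in FC3 and 50.4, 80.4, 54.9 and 53.8 in its group mates, and 19.8 in RT3 against 75.6, 85.7, 43.4 and 61.0. The linker histone gene Hist1h1e had 4.05 counts in FC3, from 4 reads, against 22.3, 41.8, 58.5 and 30.8. In RT3 it had 28.8 against 38.3, 33.1, 31.7 and 31.2, so that only FC3 was far below. Hist1h4k had 11.1 in FC3 and 17.1 in RT3, below the 19.2 to 41.8 of the 13 others. A further set hardly moved: Hist2h2be had 509 in FC3 and 577 in RT3, within its range of 490 to 612 in the other 13, and Hist1h2be had 209 and 228 within 156 to 251. Neither histone class nor stem-loop marked the direction, since H4 genes were at both ends and Hist1h1c and Hist1h1e, with the same loop, parted.

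Over the 23 tested members, FC3 was more than 1.5 times the median of its 4 group mates in 8 and less than that median divided by 1.5 in 9. Among all 18008 genes tested, 26.05% were as high and 27.7% as low in FC3. For RT3 the numbers were 6 and 2, against 11.8% and 11.4% of all genes. All 6 genes high in RT3 were high in FC3, which is 75% of the 8 there, and both genes low in RT3, Hist2h4 and Hist1h4k, were low in FC3, which is 22.2% of the 9. CC3, the control library of the same number, was high in none and low in 3 weakly read genes. Among all tested genes 1.06% were as high and 2.02% as low in CC3. Across the 23 members the log2 deviations of FC3 and RT3 had r = 0.77 (Spearman rho 0.76), as a description of genes that share 2 libraries, and across all tested genes r = 0.86. The 8 genes high in FC3 had mean counts of 12.96 to 1676, and 6 of them had a polyA signal at the annotated end. The 9 low ones had means of 9.79 to 53.7, and 2 had the signal.

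**Figure D2:**
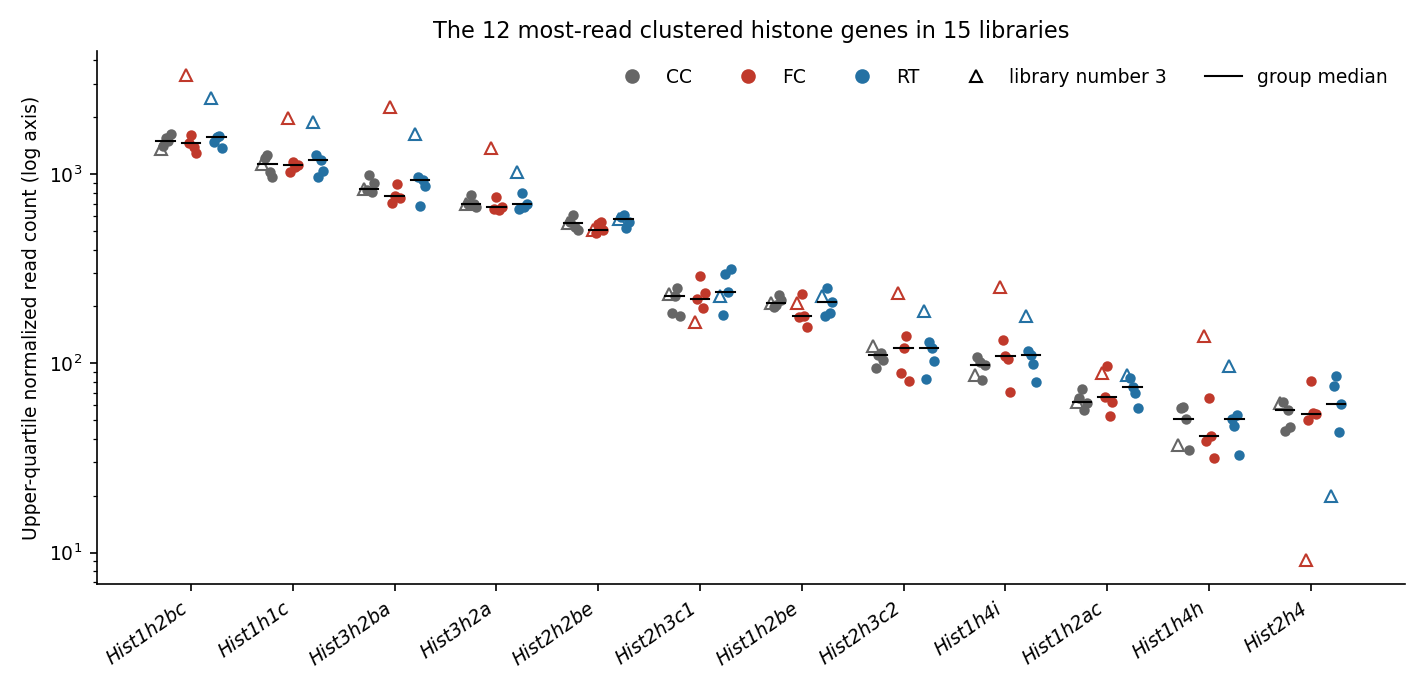
UQ-normalized read counts on a log axis are plotted for the 12 clustered histone genes with the most reads in 5 CC (grey), 5 FC (red) and 5 RT (blue) libraries, with the libraries numbered 3 as open triangles and a line at each group median. FC3 and RT3 lie above the rest for Hist1h2bc (3350 and 2537) and below them for Hist2h4 (9.12 and 19.8), while Hist2h2be has its libraries between 490 and 612.

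Over all 70 members, FC3 had 202 RPM (95% exact binomial interval 198 to 206) and RT3 had 174 (170 to 177). The 4 other FC libraries had 106 to 122 and the 4 other RT libraries 114 to 120. By group the sum was 115 ± 5.03 in CC, 130 ± 40.8 in FC and 129 ± 25.2 in RT (SD, n = 5). Without the 2 libraries it was 112 ± 6.97 in FC and 117 ± 2.68 in RT (SD, n = 4), so that the group means then lay within 1 SD of CC in both. No test was made of these sums.

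Genes outside the clusters also differed in FC3 and RT3. Over all tested genes FC3 was higher in short genes, with a median log2 deviation of 0.61 in those with up to 750 exonic bases and -0.31 in those over 3000, and RT3 had 0.41 and -0.13. The highest medians, 0.75 in FC3 and 0.44 in RT3, were in genes of 750 to 1500 bases. Among the 12 members of up to 750 bases, the median was -0.40 in FC3, with a range of -3.01 to 1.79, and 0.28 in RT3. Across the 23 members the deviation of FC3 had r = -0.02 with log2 length, and across all tested genes r = -0.25. The summed UQ counts of 4 oligodendrocyte markers were 360118 in FC3 and 324697 in RT3 against 212656 to 254362 in the 13 other libraries. Blood markers summed to 7624 and 6303 in FC3 and RT3 against 1860 to 5113 in the 13 others. The sums of 9 neuronal markers were 322575 and 368309 against 404586 to 481214, and those of 3 astrocyte markers 28656 and 40368 against 48103 to 56247. FC3 and RT3 had 52697748 and 57596149 reads, within the 35731428 to 62555543 of the series. The part of depth, gene length and cell makeup in the histone values was not tested.

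**Figure D3:**
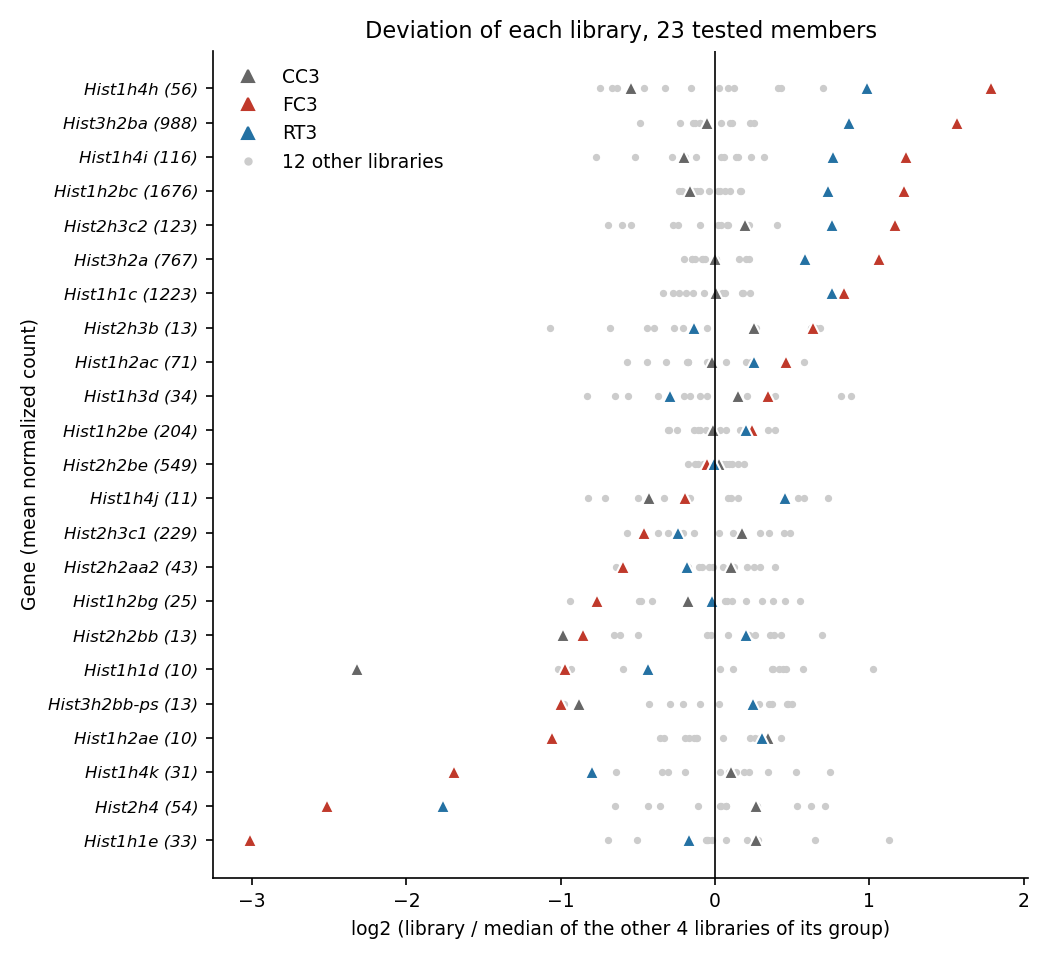
The x axis gives the log2 ratio of each library to the median of the other 4 libraries of its group, and each row is 1 of the 23 tested members with its mean UQ count in brackets, ordered by FC3. FC3 (red triangles) runs from -3.01 in Hist1h1e to 1.79 in Hist1h4h and RT3 (blue) follows in most rows, while CC3 (dark grey) and the 12 other libraries (light grey) stay nearer to 0 in the well-read genes.

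Training was compared with handling alone first (FC vs CC), to ask whether histone transcripts were changed 30 min after conditioning. The abundant members were nearly level. With factors of unwanted variation in the model (RUVs, 5 factors), the log2 fold change was 0.03 with SE 0.055 in Hist1h2bc, 0.02 with SE 0.069 in Hist1h1c and 0.01 with SE 0.073 in Hist3h2a. Their 95% intervals reached no further than a fold of 0.909 to 1.11. Over the 10 most-read members the estimates ran from -0.18 in Hist1h2be to 0.22 in Hist1h4i, and no interval went below a fold of 0.773 or above 1.34.

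None of the 23 tested members passed an edgeR FDR of 0.01 in FC vs CC, where 2.24% of all tested genes did. In 3 members the unadjusted p was under 0.05 against 16.5% of all genes, with the quasi-likelihood test in 1 and with DESeq2 in 0. The share of all genes was not counted under those 2 tests, here or in the comparisons below. The smallest edgeR FDR was 0.178, for the H3 gene Hist2h3b, with an estimate of -0.67 on the log2 scale (SE 0.28). Its counts were 16.8, 14.6, 21.9, 9.61 and 13.5 in CC and 14.2, 9.38, 5.36, 14.6 and 8.55 in FC, and the groups overlapped. For the H4 gene Hist1h4j the log2 fold change was 0.63 (SE 0.29, edgeR FDR 0.243), with counts of 5.24 to 11.6 in CC and 9.76 to 14.5 in FC. Hist1h4i followed at 0.22 (SE 0.11, edgeR FDR 0.267). The median over the 23 members was 0.02 and over all tested genes -0.01.

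Without the factors of unwanted variation the median of the members moved to 0.14. The estimates then ran from -0.53 in Hist2h3b to 0.62 in Hist1h4j. Hist3h2ba was at 0.30 without the factors, at -0.09 with them, and at -0.16 without the factors and without FC3 and RT3. Hist1h2bc went from 0.29 to 0.03 with the factors and to -0.04 without the 2 libraries. With UQ alone, 0.189% of all genes passed an edgeR FDR of 0.01, and 0 members did. At an unadjusted p under 0.05 there were 0 members under UQ alone, against 3.07% of all genes. In no member did all 5 FC libraries lie on one side of all 5 CC libraries, which was so in 0.961% of all tested genes.

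Retrieval was then compared with handling (RT vs CC). Again no member passed an edgeR FDR of 0.01, against 1.01% of all tested genes, and 3 had an unadjusted p under 0.05 against 11.1% (1 with the quasi-likelihood test and 0 with DESeq2). The H3 gene Hist1h3d came nearest, with an estimate of 0.52 on the log2 scale (SE 0.17, edgeR FDR 0.101). It had 31.0, 27.5, 32.2, 22.7 and 28.1 counts in CC3, CC5, CC6, CC7 and CC8 and 34.2, 28.5, 55.5, 25.02 and 58.1 in RT3, RT5, RT6, RT7 and RT8. RT6 and RT8 were high and the 3 others lay close to or within the range of CC. Hist2h4 was at 0.29 (SE 0.13, edgeR FDR 0.349) with the factors and at 0.07 without them, where RT3 had 19.8 counts and CC 43.7 to 62.4.

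Hist2h3c1, an H3 gene of the Hist2 cluster, was the 1 member whose call turned on a library. Its log2 fold change in RT vs CC was 0.27 (SE 0.13, edgeR FDR 0.386), and without RT5 it was 0.41 with an edgeR FDR of 0.00695, past the threshold. The counts were 233, 185, 226, 252 and 178 in CC and 226, 180, 296, 238 and 316 in RT, and the groups overlapped. For the abundant members the estimates were small: 0.07 (SE 0.055) in Hist1h2bc, 0.04 (SE 0.069) in Hist1h1c, 0.06 (SE 0.061) in Hist2h2be and -0.0050 (SE 0.067) in Hist3h2ba. The median of the members was 0.06 with the factors and 0.20 with UQ alone, and without FC3 and RT3 and without factors it was 0.04. Under UQ alone 0 members passed the FDR threshold, against 0.106% of all genes, and in 1 member the unadjusted p was under 0.05, against 1.39%. No member had RT and CC libraries that did not overlap, against 1.35% of all genes.

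Training and retrieval were compared last (FC vs RT). None of the 23 members passed an edgeR FDR of 0.01, against 0.122% of all tested genes, and 3 had an unadjusted p under 0.05 against 10.7% (0 with the quasi-likelihood test, 0 with DESeq2 and 0 with UQ alone, where it was 0.677% of all genes). Hist1h3d had an estimate of -0.37 (SE 0.17, edgeR FDR 0.372), with 38.5, 30.5, 39.7, 23.2 and 29.9 counts in FC within the 25.02 to 58.1 of RT but for FC7. Hist2h2be was at -0.12 (SE 0.062, edgeR FDR 0.458), with 509, 490, 549, 562 and 507 counts in FC and 577, 597, 606, 519 and 561 in RT. Hist1h2be was at -0.19 (SE 0.098, edgeR FDR 0.464), with 209, 176, 232, 178 and 156 counts in FC and 228, 179, 251, 185 and 211 in RT. The groups overlapped. FC was the lower in 5 of 5 pairs of libraries with the same number, but the small p of Hist1h2be rests on these same counts. How many of all tested genes had such pairs was not counted, so nothing is drawn from it. With the replicate number as a block the estimate of Hist1h2be was -0.17 (edgeR FDR 0.322). In 1 member, the H2A gene Hist1h2ae, all FC libraries lay below all RT libraries, as 0.228% of all tested genes did in either direction. Its counts were 4.05 to 9.65 in FC and 10.7 to 13.5 in RT, its log2 fold change was -0.55 (SE 0.30, edgeR FDR 0.524), and it is named because its values were seen. FC and RT are each set against the same CC libraries above, so those comparisons share their controls.

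**Figure D4:**
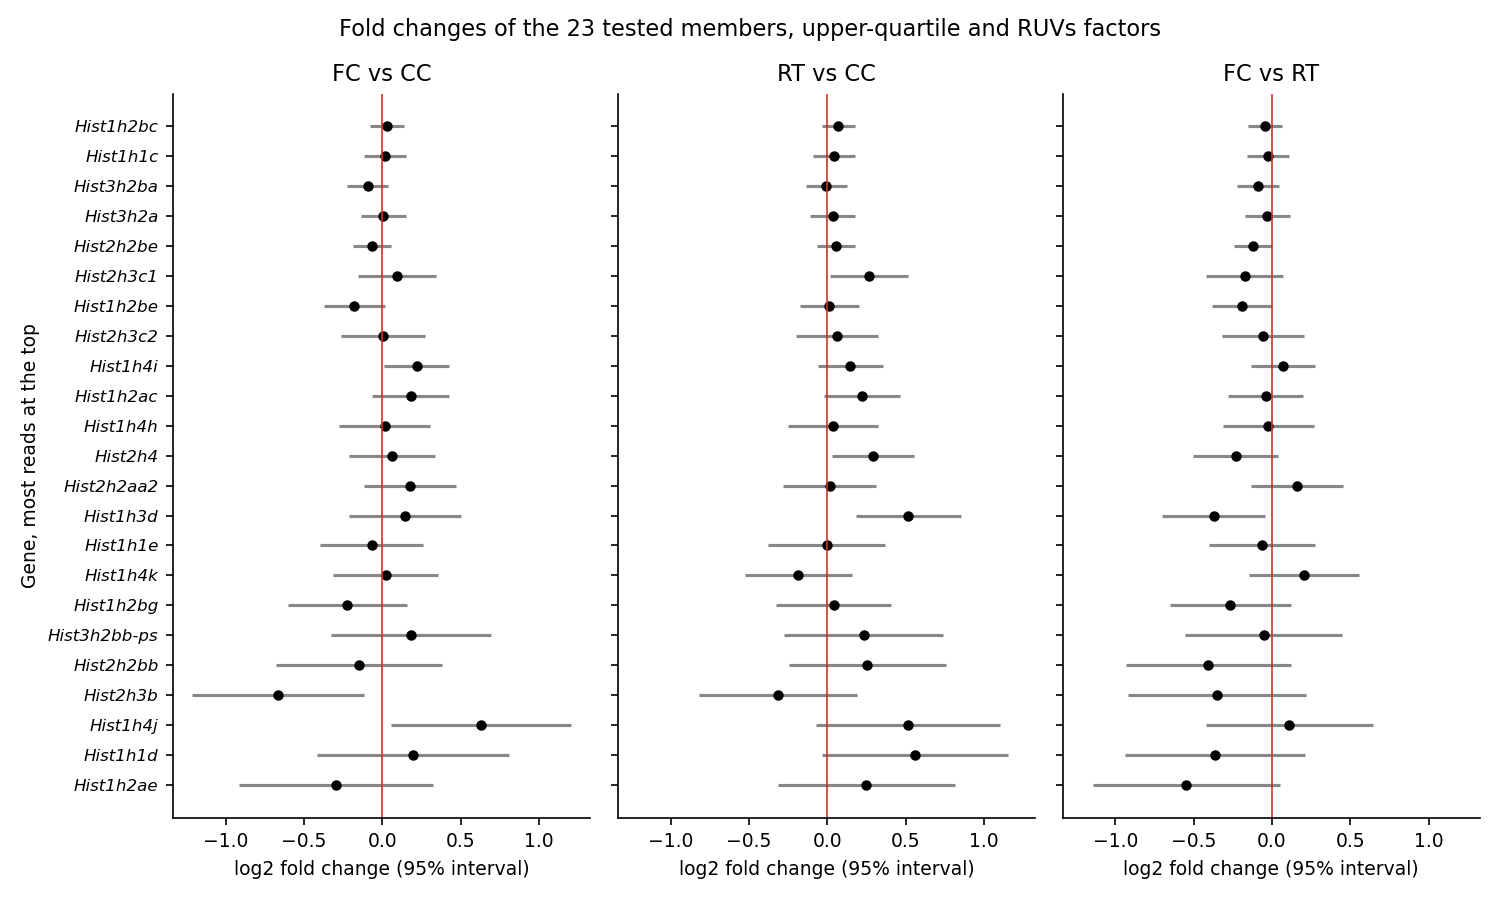
Points give the log2 fold change of the 23 tested members, and bars its 95% interval, in FC vs CC, RT vs CC and FC vs RT from the model with UQ and RUVs factors, with the most-read gene at the top. Intervals are narrow and near 0 in the upper rows (Hist1h2bc at 0.03, 0.07 and -0.05) and widen towards the weakly read genes at the bottom, and no point passes an FDR of 0.01.

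Size of effect was in general bounded more closely where reads were many. Between the members, the SE ran from 0.055 in Hist1h2bc to 0.32 in Hist1h2ae in FC vs CC, with a median of 0.15 against 0.056 over all tested genes. With the RUVs factors, a change of 1.5-fold lay outside the intervals of the 10 most-read members in all 3 comparisons, where the bounds were folds of 0.748 and 1.43. With UQ alone it did not: in FC vs CC the upper bound was above 1.5 in 5 of the 10, up to 2.03 in Hist1h4i. For Hist2h3b, Hist1h4j, Hist1h1d and Hist1h2ae, with 148 to 192 reads in all, the intervals in FC vs CC were wide enough to hold a change of that size. So were those of Hist2h2bb (0.624 to 1.30), Hist1h2bg (0.657 to 1.12) and Hist3h2bb-ps (0.795 to 1.62), even with the RUVs factors. Some other weaker members had narrower ones with the RUVs factors, such as Hist1h4k (0.803 to 1.28) and Hist1h1e (0.760 to 1.20).

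Genes that make, cut and carry histone mRNA and protein were set beside the members. Of 14 genes for transcription and 3′ processing of histone mRNA, all were tested and 1 passed an edgeR FDR of 0.01, Pou2f1, which encodes a factor that binds H2B promoters. It was higher in FC than in CC (log2 fold change 0.27, SE 0.054, edgeR FDR 1.11e-04). Slbp, which encodes the stem-loop binding protein, and Npat, a coactivator of histone transcription, were among the 13 that did not pass in FC vs CC, and none of the 14 passed in the other comparisons. Some of these genes also stood apart in FC3 and RT3. Npat had 345 and 535 counts, 0.284 and 0.478 times the median of the group mates, and Lsm10, a subunit of the U7 particle, had 739 and 567, 2.31 and 1.68 times that median. Slbp was at 0.928 and 1.07 times the median. Npat, Slbp and Lsm10 are named for their role and after their values were seen, and Casp8ap2 and Hinfp for their values in FC3. The most abundant of the 14, Sympk and Srrt, which take part in cutting the mRNA, had log2 fold changes of -0.01 (SE 0.029) and -0.07 (SE 0.036) in FC vs CC. None of 25 histone chaperones and none of 30 genes of DNA replication and cell division passed in any of the 3 comparisons. Of 16 RNAs listed as made without a polyA tail, 7 were in the table and 5 were tested, and none passed. Malat1, the most abundant of these, had a log2 fold change of -0.12 (SE 0.11) in FC vs CC.

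Unclustered histone genes had most of the histone reads. Of 17 in the table, 13 were tested, and their sum was 510 ± 20.6 RPM in CC (SD, n = 5), against 115 ± 5.03 for the 70 clustered ones. Per length, H1f0, a linker histone of non-dividing cells, had a mean FPKM of 92.6, and H3f3b, a replacement H3, had 56.3, both above the 44.4 of Hist1h2bc. None of the 13 passed an edgeR FDR of 0.01. The linker histone gene H1fx came nearest, at 0.30 on the log2 scale in RT vs CC (SE 0.077, edgeR FDR 0.0104). In FC3, 7 of the 13 were above 1.5 times the median of the group mates, up to 3.05 times in H1fx. In the same library 1, the weakly read H2afy3, was below that median divided by 1.5. The clustered genes had 8 and 9 of 23, and among all tested genes 26.05% were as high and 27.7% as low. H1f0 was at 0.703 times in FC3. In RT3, 1 of the 13 was as high and 1 as low, against 11.8% and 11.4% of all tested genes. Among early genes, which are transcribed within minutes of neuronal activity, 7 of 8, Fos among them, passed in FC vs CC and 7 in RT vs CC, all upwards. Of 8 choroid plexus genes, from an epithelium next to the hippocampus, 7 passed upwards in FC vs CC, 1 in RT vs CC and 4 in FC vs RT. All 8 estimates were above 0 in each comparison, the lowest log2 fold changes being 0.49, 0.19 and 0.30. The summed counts of these genes ranged in CC from 10352 to 11576, in FC from 13707 to 81680 and in RT from 10865 to 28963. Their part in the histone values was not tested. In the 8 other marker lists, of neurons, progenitors, glia, vessels and blood, no gene passed in any comparison.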

How the data were processed

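Reads were processed by the authors, who aligned pairs to mm9 with GSNAP, kept unique concordant pairs and used HTSeq 0.6.1 to count pairs in Ensembl genes. The deposited values are raw read counts per gene, 35731428 to 62555543 per library. Members and gene lists were chosen with earlier results of these data known.

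The 18008 genes that exceeded 10 reads in over 5 libraries were scaled by upper quartile and fitted over all 15 libraries in edgeR 4.0.16 (R 4.3.3) with common and tagwise dispersion, 5 RUVs factors from 625 negative control genes listed by the study, likelihood ratio tests and Benjamini-Hochberg adjustment over all genes at 0.01. The SE was the absolute log2 fold change divided by the root of the likelihood ratio, and intervals cover 95%. The procedure was tested on simulated counts with the same dispersion for all genes and changes only in genes of higher mean count. They held no unwanted variation and no libraries like FC3 and RT3. That test cannot show how the fit behaves under such variation or in weakly read genes. Alternatives were UQ alone, TMM, the quasi-likelihood test, DESeq2 1.42.0, other filters, factor numbers and controls, a replicate block and single libraries left out. Leaving out FC3 and RT3 together was added after seeing the data. Deviations used log2(count + 0.5) against the median of the other 4 libraries of a group.

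Stem-loops, polyA signals and unique windows were read from the mm9 sequence, and each window of 100 bases was looked for on both strands. Motifs were searched on the strand of the gene.

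Members were named if they were among the 10 with the highest mean count, passed the threshold, had 1 of the 3 smallest p-values of a comparison, or had 1 of the 3 highest or 3 lowest ratios in FC3. Others named are the 2 most abundant of a list and those past the threshold, apart from genes named for their role or their values.

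Over 16646 genes, the deviations of FC and RT pairs of equal number had correlations of 0.305 to 0.898. Pairs of unequal number had a median of 0.164 and reached 0.592, above the lower end of that range. The range therefore does not show that every pair of equal number is linked, and FC3 with RT3 is 1 of them. CC did not pair by number with either group (-0.395 to 0.287 with FC and -0.41 to 0.0965 with RT). The labels do not say what the number marks. P-values with UQ alone measure the spread between mice of 1 laboratory, and those with RUVs factors measure what the factors left of it. In FC vs CC the median SE of the tested members was 0.26 with UQ alone and 0.15 with the factors.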

Additional observations from a re-analysis of the deposited data

Results flagged for a closer look

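A library far from the 4 others of its group was looked for in 54 groups of values, and 7 were found. Chance alone would flag about 1 in 20 of groups chosen without regard to their values. The genes looked at included those named for the highest and lowest ratios in FC3, so that rate does not hold here. All were FC3 or RT3, and all on the high side. The gaps were taken on counts without logs, a scale that shortens gaps on the low side. Hist2h4 in FC3, with 9.12 counts against 50.4 to 80.4 in its group mates, was not flagged. Nothing is therefore drawn from the lack of low flags. The gap of FC3 to the nearest library, as a share of the whole range of the group, was 0.852 in Hist1h2bc, 0.869 in Hist1h1c, 0.883 in Hist3h2ba, 0.842 in Hist3h2a and 0.836 in the summed RPM of all members. For RT3 it was 0.803 in Hist1h2bc and 0.900 in the summed RPM. These values share libraries, and the genes make up most of the sum, so that they are not 7 separate observations.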

How the results depend on the processing

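In 28 alternatives for each of 3 comparisons, the number of clustered histone genes past an FDR of 0.01 was 0 in 83 of 84. The exception was RT vs CC without RT5, with 1 gene, Hist2h3c1. Leaving out single libraries gave 0 to 0 in FC vs CC, 0 to 1 in RT vs CC and 0 to 0 in FC vs RT. The numbers with an unadjusted p under 0.05 ran from 0 to 9, 0 to 7 and 0 to 6. In the main edgeR fit it was 3 of 23 in each, against 16.5%, 11.1% and 10.7% of all tested genes. The number of members tested changed with the setting. The share of all genes was not counted in most alternatives, so nothing is drawn from these ranges. Of 1422 fold changes of named members, 1421 were not called. With the replicate number as a block, 0 members were called in each comparison, with and without RUVs factors, and no call changed with the pairing. The smallest FDR under the block was 0.0208, for Hist2h3c1 in RT vs CC.

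Over all genes the numbers called in FC vs CC, RT vs CC and FC vs RT were 403, 182 and 22, and with UQ alone 34, 19 and 0, with the quasi-likelihood test 98, 66 and 0, and with DESeq2 164, 85 and 4. With at least 1 read in any library as the filter, 68 members were tested in place of 23. The cause of the low counts of the 47 other members was not tested.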
